A study of Mus musculus with 25 samples.

Results

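The 26 genes described here are the enzymes that make cholesterol and the proteins that control their expression through SREBP2, the sterol-sensing transcription factor. They were taken by symbol from the 35723 genes of the deposited FPKM table, by pathway role, with no threshold on a measured value, and all 26 were among the 22131 genes with enough counts to be tested. By step they are 8 enzymes of the mevalonate stage, 3 that make squalene and lanosterol, 9 that turn lanosterol into cholesterol, 4 that encode SREBP2 and the proteins that hold or move it, and 2 that act on sterol transport and on the LDL receptor. Their counts ranged from 227 to 24454 per library.

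The samples were whole jejunum of mouse pups, in 25 poly(A) RNA libraries, 5 for each of 5 feeding groups. Pups were assigned at postnatal day 14, and 4 groups were weaned at day 15 (early weaning, EW): EW with both 2'-fucosyllactose and lacto-N-neotetraose (EW+HMOs), EW with 2'-fucosyllactose (EW+2'-FL), EW with lacto-N-neotetraose (EW+LNnT) and EW alone. The suckling controls were taken at day 21. Both sugars are oligosaccharides of human milk: 2'-fucosyllactose is lactose that carries fucose, and lacto-N-neotetraose is lactose extended by N-acetylglucosamine and galactose, without fucose. The sources used here do not give the strain, the doses or the day on which EW jejunum was collected, so whether the combination held as much of each sugar as the single supplements is not known. Nothing in the labels ties each library to its own animal, and the p-values measure the spread between these samples, which may be technical. In pieces of tissue, fewer cells of a type and less RNA per cell cannot be told apart.

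Cells build cholesterol from acetyl-CoA through mevalonate, isoprenoid units, squalene and lanosterol. When membranes of the endoplasmic reticulum are rich in sterol, INSIG proteins hold SCAP and SREBP2 there; when sterol is short, SCAP carries SREBP2 to the Golgi, where it is cut, and the freed part switches on most genes of the pathway, the gene for INSIG1 among them. The small intestine both absorbs cholesterol from food and bile and makes its own, and milk brings cholesterol to the suckling pup.

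Libraries held 58732979 to 89589183 counts. FL1, LNnT1 and LNnT2 (named by group and replicate) stood apart from the other 22 on the first principal component, which held 20.8% of the variance. Transcripts of pancreatic acinar cells summed to between 881 and 12160 CPM (counts scaled to library size) in 6 libraries (Control2, Control3, Weaned1, FL5, LNnT1 and LNnT2), and to at most 6.52 in any other. Y-linked transcripts without Xist marked 3 EW+HMOs, 4 EW+2'-FL, 2 EW+LNnT and 4 EW libraries and 0 control libraries. In Control2 both kinds, Xist and Y-linked, were present. All 10 enterocyte markers were expressed, and their summed CPM ranged from 49010 to 57260 in EW+HMOs, 32290 to 65820 in EW+2'-FL, 36250 to 73210 in EW+LNnT, 40730 to 96380 in EW and 40080 to 54990 in controls.

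Most genes of the pathway had a higher mean level in EW+HMOs and in EW jejunum than in suckling controls, and most had a lower mean with either sugar alone than in EW, where 3 of these differences passed the test. Squalene epoxidase, Sqle, averaged 7.99 ± 2.49 FPKM in EW+HMOs, 3.65 ± 1.81 in EW+2'-FL, 2.34 ± 1.14 in EW+LNnT, 7.61 ± 2.35 in EW and 2.13 ± 0.399 in controls (mean ± SD, n = 5 each; FPKM counts fragments per kilobase of transcript, scaled to library size). HMG-CoA synthase, Hmgcs1, was also highest in EW+HMOs and EW, with 26.6 ± 7.97 FPKM in EW+HMOs, 11.4 ± 4.72 in EW+2'-FL, 9.69 ± 4.41 in EW+LNnT, 25.1 ± 5.89 in EW and 12 ± 1.76 in controls. A gene was called when the Benjamini-Hochberg adjusted p of edgeR's quasi-likelihood test, over all 22131 genes, was under 0.05. By that rule 10 members rose in EW against controls (0.443% of all genes did), 3 fell in EW+LNnT against EW (0.0542%), 0 were called against EW in EW+HMOs or EW+2'-FL (0.00%), and 12 were called higher in the test of whether the combined supplement differed from the sum of the single ones (0.258%).

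**Figure D1:**
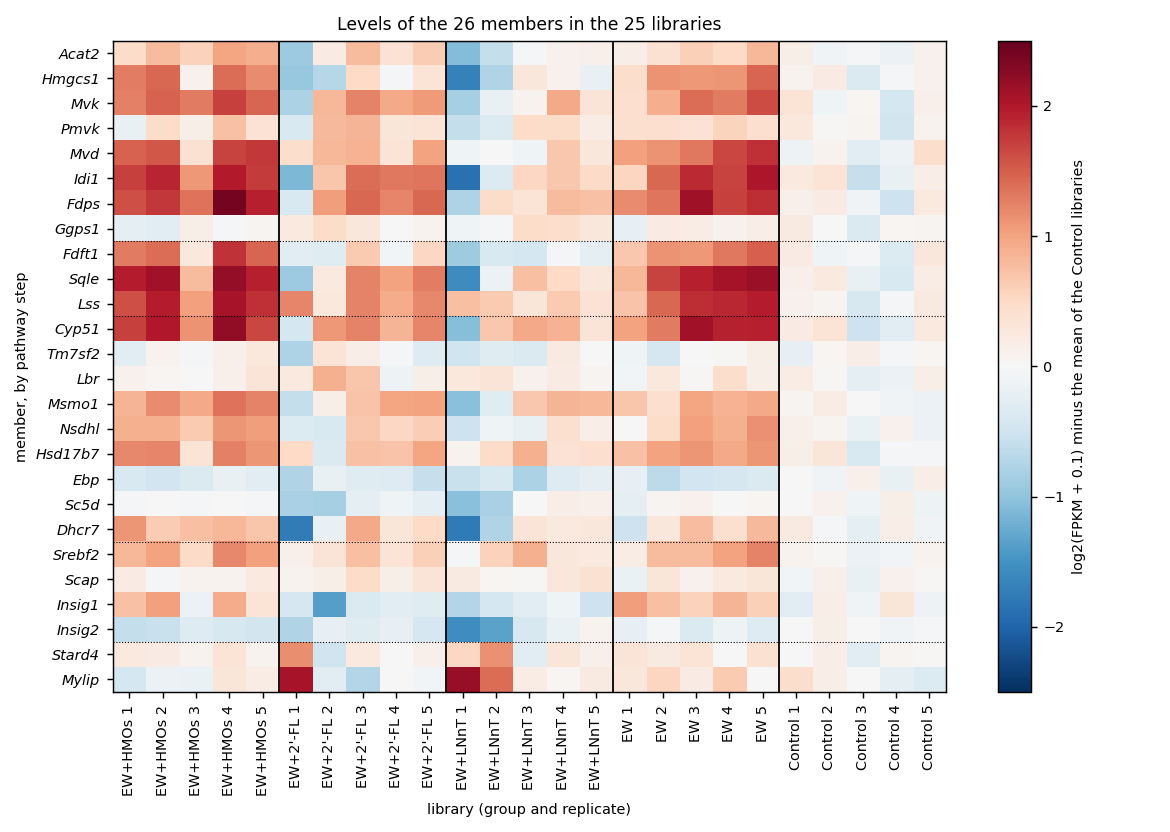
Level of each of the 26 genes (rows, in pathway order, with dotted lines between steps) in each of the 25 libraries (columns, by group and replicate), as log2(FPKM + 0.1) minus the mean of the control libraries. Red cells fill most of the EW+HMOs and EW columns in the rows of Hmgcs1, Fdps, Sqle and Cyp51. The 3 columns of FL1, LNnT1 and LNnT2 hold the lowest values of Acat2, Hmgcs1, Msmo1, Dhcr7 and Insig2 and the highest of Stard4 and Mylip.

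Of 5 genes, Hmgcs1, Mvd, Lss and Insig1 were called higher for the combined supplement beyond the sum of the single ones. The fifth, Ggps1, is in the same pathway and was called in no comparison. The windows around the transcription starts of these 5 genes are printed. Each runs from 250 bases before to 50 bases after a RefSeq start, on build GRCm38.p6 (the deposited coordinates are of GRCm39), and is written 5′ to 3′ on the gene's strand. They lie at chr13:119690101-119690400 (plus strand), chr8:122443373-122443672 (minus), chr10:76531355-76531654 (plus), chr5:28071162-28071461 (plus) and chr13:14063439-14063738 (minus). Capitals mark a sterol regulatory element, TCACCCCAC, the site that SREBPs bind; the CCAAT box, CCAAT, a site of NF-Y; and the GC box, GGGCGG, a site of Sp1, each on either strand, so that ATTGG and CCGCCC are the last pair read from the other strand.
Hmgcs1: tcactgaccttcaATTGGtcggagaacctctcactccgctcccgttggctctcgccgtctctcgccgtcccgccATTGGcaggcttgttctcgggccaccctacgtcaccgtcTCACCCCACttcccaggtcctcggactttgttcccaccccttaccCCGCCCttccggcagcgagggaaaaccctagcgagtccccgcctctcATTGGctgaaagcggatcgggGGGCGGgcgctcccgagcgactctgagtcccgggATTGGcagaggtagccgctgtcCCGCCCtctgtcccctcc
Mvd: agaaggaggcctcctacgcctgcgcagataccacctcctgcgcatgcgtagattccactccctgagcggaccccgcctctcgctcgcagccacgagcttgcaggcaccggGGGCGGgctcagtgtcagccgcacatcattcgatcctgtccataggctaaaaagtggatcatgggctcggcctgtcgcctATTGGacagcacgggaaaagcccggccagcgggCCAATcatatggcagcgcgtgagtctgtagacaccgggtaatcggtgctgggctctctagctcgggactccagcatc
Lss: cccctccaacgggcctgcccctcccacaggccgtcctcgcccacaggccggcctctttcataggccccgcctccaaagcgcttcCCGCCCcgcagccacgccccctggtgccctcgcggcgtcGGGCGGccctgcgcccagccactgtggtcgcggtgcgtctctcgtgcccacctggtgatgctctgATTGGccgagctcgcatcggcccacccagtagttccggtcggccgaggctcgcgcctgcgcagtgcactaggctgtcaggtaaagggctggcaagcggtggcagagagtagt
Insig1: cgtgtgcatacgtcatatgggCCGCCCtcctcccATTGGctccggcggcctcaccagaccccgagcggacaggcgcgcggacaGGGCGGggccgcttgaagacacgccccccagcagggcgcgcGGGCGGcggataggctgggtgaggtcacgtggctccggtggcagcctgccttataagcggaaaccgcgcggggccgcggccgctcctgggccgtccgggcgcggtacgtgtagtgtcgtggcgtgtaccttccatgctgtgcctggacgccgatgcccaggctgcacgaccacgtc
Ggps1: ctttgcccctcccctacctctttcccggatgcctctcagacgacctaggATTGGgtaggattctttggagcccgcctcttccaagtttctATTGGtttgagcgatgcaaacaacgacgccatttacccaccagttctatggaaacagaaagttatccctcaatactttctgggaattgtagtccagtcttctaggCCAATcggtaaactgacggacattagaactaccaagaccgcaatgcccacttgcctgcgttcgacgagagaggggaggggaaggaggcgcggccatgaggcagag
RefSeq windows were at hand for 22 of the 26 genes. TCACCCCAC, and the looser TCACNCCAC that includes it, each occurred in 1 of the 22, Hmgcs1, against 0.614% and 1.44% of 27025 genes with a window. CCAAT occurred in 20 of the 22 and in 41.1% of all genes, and GGGCGG in 20 of the 22 and in 38.2%. Of the 9 with a window called for the combined supplement beyond the sum of the single ones, 8 held CCAAT and 9 GGGCGG. Of the other 13, 12 and 11 did. A match is a run of letters and not a shown binding site, and the lack of one says only that these letters are not in the window.

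In the mevalonate stage, 6 of the 8 genes, all but Pmvk and Ggps1, had their highest mean in EW+HMOs and the next in EW. Hmgcs1 (ENSMUSG00000093930; chromosome 13, 120151915 to 120169796 on GRCm39) joins acetyl-CoA to acetoacetyl-CoA, and is the gene with the sterol regulatory element in its window. It held 29.04, 32.4, 12.8, 31.5 and 27.1 FPKM in the EW+HMOs libraries, 6.09, 7.24, 16.8, 11.6 and 15.2 in EW+2'-FL and 3.59, 7.05, 14.5, 12.8 and 10.5 in EW+LNnT. It held 16.1, 26.2, 25.4, 25.5 and 32.5 FPKM in EW and 12.7, 13.8, 9.196, 11.6 and 12.8 in controls. In FPKM, every EW library lay above every EW+LNnT and every control library, 4 of 5 EW libraries lay above every EW+2'-FL library, and HMOs3 alone among EW+HMOs libraries fell within the range of the low groups. Its log2 difference was 2.60 ± 0.41 (estimate ± standard error) for the combined supplement beyond the sum of the single ones, with edgeR adjusted p = 0.00307. Against EW it was -1.14 ± 0.29 with 2'-FL and -1.30 ± 0.29 with LNnT, with edgeR adjusted p = 0.336 and 0.06499, neither of which passed. In EW against controls it was 1.06, which was not called either.

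Mvd (ENSMUSG00000006517; chromosome 8, 123160340 to 123170161 on GRCm39), the decarboxylase that ends the mevalonate stage by making isopentenyl diphosphate, held 6.74, 7.09, 3.09, 7.84 and 8.32 FPKM in EW+HMOs, 3.26, 4.27, 4.38, 3.01 and 4.87 in EW+2'-FL and 2.195, 2.39, 2.195, 3.84 and 2.88 in EW+LNnT. It held 4.94, 5.24, 6.08, 7.69 and 8.64 FPKM in EW and 2.16, 2.503, 1.94, 2.15 and 3.26 in controls. All 5 EW libraries lay above all libraries of EW+2'-FL, EW+LNnT and the controls. Mvd rose 2.72-fold in EW over controls (log2 1.44 ± 0.21; edgeR adjusted p = 0.00103) and fell in EW+LNnT against EW (log2 -1.17 ± 0.21; edgeR adjusted p = 0.0167). In EW+2'-FL the difference from EW was -0.72 ± 0.21 (edgeR adjusted p = 0.522), and in EW+HMOs it was 0.10 ± 0.21.

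The other enzymes of the stage split into movers and non-movers. Fdps, which makes farnesyl diphosphate, averaged 12.6 ± 3.59 FPKM in EW+HMOs, 7.32 ± 2.797 in EW+2'-FL, 4.55 ± 1.601 in EW+LNnT, 11.1 ± 2.94 in EW and 3.47 ± 0.6997 in controls, and its 7.81 to 15.2 in EW lay above its 2.36 to 4.06 in controls. Idi1, the isopentenyl diphosphate isomerase, averaged 15.4 ± 3.35 FPKM in EW+HMOs, 9.14 ± 4.396 in EW+2'-FL, 5.08 ± 2.61 in EW+LNnT, 14.2 ± 4.78 in EW and 4.75 ± 1.15 in controls. Mvk, mevalonate kinase, averaged 7.06 ± 0.887 FPKM in EW+HMOs, 4.49 ± 1.82 in EW+2'-FL, 2.88 ± 1.34 in EW+LNnT, 5.897 ± 1.799 in EW and 2.57 ± 0.518 in controls. These 3 rose in EW against controls, Fdps 3.22-fold, Idi1 2.98-fold and Mvk 2.29-fold, with edgeR adjusted p = 0.00175, 0.0405 and 0.03204. A pseudogene, Idi1-ps1, differed by 1.63 in the same comparison (edgeR adjusted p = 0.0395), and how reads shared with Idi1 were counted is not given in the sources used here.

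Acat2, which condenses acetyl-CoA for the first step, averaged 15.2 ± 2.32 FPKM in EW+HMOs, 11.2 ± 4.15 in EW+2'-FL, 7.601 ± 2.48 in EW+LNnT, 12.8 ± 2.21 in EW and 8.96 ± 0.767 in controls. It rose in EW+HMOs against controls (log2 0.84 ± 0.20; edgeR adjusted p = 0.0305) and was not called in EW (0.51 ± 0.20; edgeR adjusted p = 0.2396). Its paralog Acat3 held a mean of 330 counts, against 2483 for Acat2. Pmvk, phosphomevalonate kinase, averaged 6.33 ± 1.49 FPKM in EW+HMOs and 6.79 ± 0.349 in EW, against 5.05 ± 0.882 in controls, and was called in no comparison. Neither was Ggps1, which makes geranylgeranyl diphosphate for the lipid tails of proteins and not for sterols: it averaged 4.22 ± 0.568 FPKM in EW+HMOs, 5.14 ± 0.655 in EW+2'-FL, 5.15 ± 0.929 in EW+LNnT, 4.703 ± 0.527 in EW and 4.42 ± 0.643 in controls. Its log2 difference was 0.10 in EW against controls (95% interval -0.13 to 0.33).

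The 3 enzymes that make squalene and lanosterol were all called higher in EW against controls. All 3 were also called for the combined supplement beyond the sum of the single ones, and 0 in EW+HMOs against EW. Fdft1 (ENSMUSG00000021273; chromosome 14, 63382599 to 63417027 on GRCm39), squalene synthase, commits farnesyl diphosphate to sterols. It held 8.48, 9.03, 4.095, 12.1 and 9.42 FPKM in EW+HMOs, 2.81, 2.73, 5.38, 3.21 and 4.89 in EW+2'-FL and 1.79, 2.57, 2.48, 3.25 and 2.83 in EW+LNnT. It held 5.44, 7.52, 7.32, 8.63 and 9.696 FPKM in EW and 3.93, 3.13, 3.33, 2.64 and 4.11 in controls. The EW libraries lay above every library of EW+2'-FL, EW+LNnT and the controls. Its log2 difference against EW was -1.47 ± 0.22 in EW+LNnT (edgeR adjusted p = 0.00402), -1.01 ± 0.22 in EW+2'-FL (edgeR adjusted p = 0.246) and 0.24 ± 0.21 in EW+HMOs. The combined supplement differed from the sum of the single ones by 2.72 ± 0.31 (edgeR adjusted p = 0.000101), the smallest adjusted p of the 26 genes in that test. Fdft1 overlaps Ctsb, whose difference was -0.08 in EW+LNnT against EW and 0.37 in the same test of the combination, neither of them called.

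Sqle (ENSMUSG00000022351; chromosome 15, 59186926 to 59203041 on GRCm39), which oxidises squalene, held 8.42, 9.38, 3.7, 10.03 and 8.39 FPKM in EW+HMOs, 1.06, 2.51, 5.08, 4.31 and 5.26 in EW+2'-FL and 0.642, 1.89, 3.59, 3.003 and 2.58 in EW+LNnT. It held 3.802, 7.01, 8.36, 9.17 and 9.69 FPKM in EW and 2.29, 2.52, 1.83, 1.59 and 2.42 in controls. Every EW library lay above every control and every EW+LNnT library, while Weaned1 lay within the range of EW+2'-FL. Sqle had the largest rise of the 26 genes in EW, 3.55-fold (log2 1.83 ± 0.37; edgeR adjusted p = 0.0139), and the largest value for the combination beyond the single sugars, 2.83 ± 0.51 (edgeR adjusted p = 0.00854). Lss, which closes the ring to lanosterol, held 2.52, 3.24, 1.64, 3.47 and 2.94 FPKM in EW+HMOs, 1.905, 0.933, 1.92, 1.54 and 1.87 in EW+2'-FL and 1.33, 1.25, 0.9496, 1.25 and 1.003 in EW+LNnT. It held 1.303, 2.22, 2.97, 3.08 and 3.24 FPKM in EW and 0.827, 0.801, 0.552, 0.735 and 0.905 in controls. In FPKM every library of the 4 weaned groups lay above every control library, with FL2 and Control5 the closest pair; on TMM-scaled counts EW+2'-FL and the controls overlapped. Lss rose 3.33-fold in EW over controls (edgeR adjusted p = 0.000672), and the combination differed from the sum of the single sugars by 1.80 ± 0.34 (edgeR adjusted p = 0.0106).

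**Figure D2:**
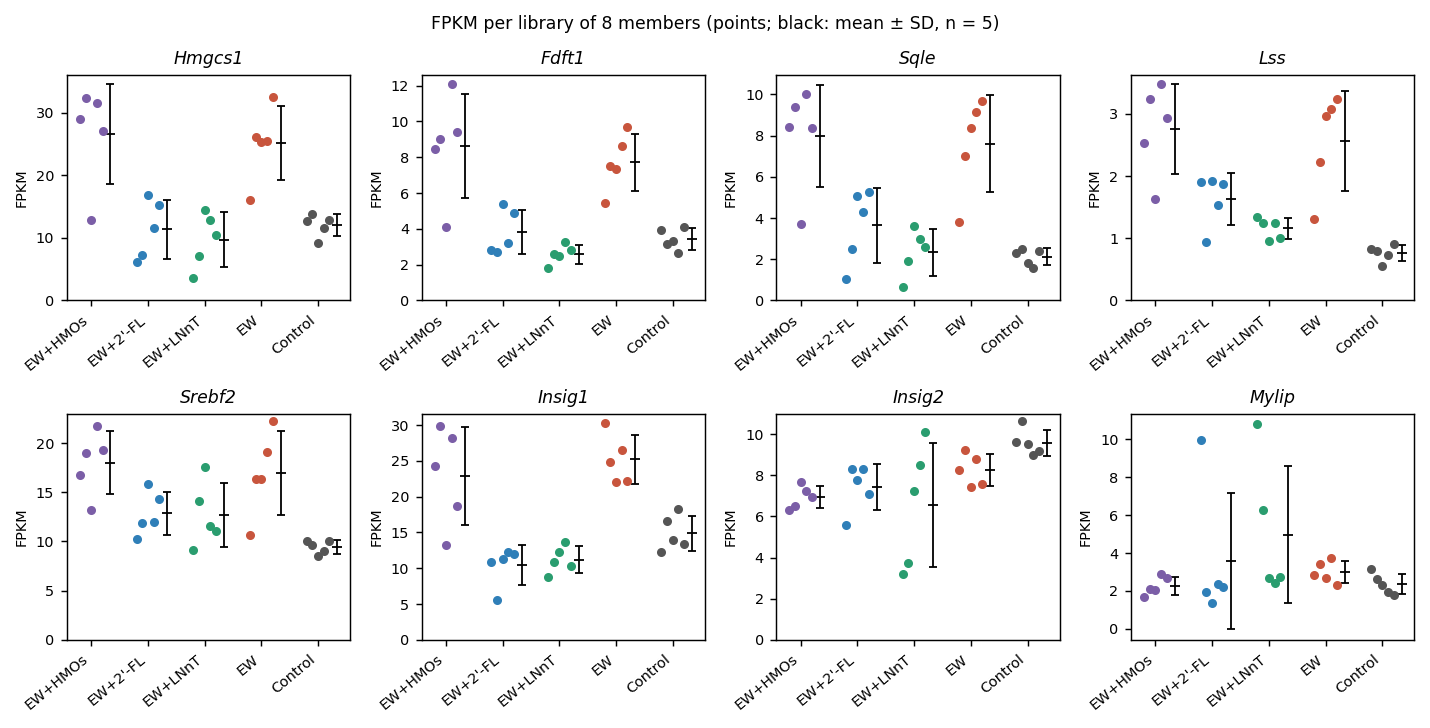
FPKM of 8 of the genes in every library (points, left to right by replicate within a group) with the mean and SD of the group (black, n = 5). Hmgcs1, Fdft1, Sqle and Insig1 are high in EW+HMOs and EW and low in the other 3 groups, with HMOs3 the lowest EW+HMOs point of each; Mylip is at 9.98 (FL1), 10.8 (LNnT1) and 6.26 (LNnT2) and no higher than 3.72 elsewhere.

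Of the 9 enzymes that turn lanosterol into cholesterol, 2 were called higher in EW against controls. Cyp51 removes the first methyl group of lanosterol. It averaged 11.7 ± 3.14 FPKM in EW+HMOs, 6.29 ± 2.299 in EW+2'-FL, 4.74 ± 2.01 in EW+LNnT, 11.1 ± 3.34 in EW and 3.396 ± 0.828 in controls, and rose 3.27-fold in EW (log2 1.71 ± 0.30; edgeR adjusted p = 0.00475). Hsd17b7, a ketosteroid reductase of the demethylation complex, averaged 5.37 ± 1.22 FPKM in EW+HMOs, 3.82 ± 1.19 in EW+2'-FL, 3.52 ± 0.764 in EW+LNnT, 5.08 ± 0.537 in EW and 2.55 ± 0.454 in controls, and rose 2-fold in EW (edgeR adjusted p = 0.0268). Msmo1 and Nsdhl, which take part in the same demethylation, were called higher in EW+HMOs against controls, by 1.21 ± 0.26 and 1.01 ± 0.20, with edgeR adjusted p = 0.0162 and 0.00824. In EW against controls they differed by 0.81 ± 0.26 and 0.76 ± 0.20, with edgeR adjusted p = 0.156 and 0.0754.

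None of the next 4 enzymes was called in any comparison. Sc5d, the desaturase before the last reduction, averaged 19 ± 0.353 FPKM in EW+HMOs, 14.5 ± 3.39 in EW+2'-FL, 16.4 ± 5.83 in EW+LNnT, 19.2 ± 1.77 in EW and 19.3 ± 1.72 in controls. The 95% interval of its log2 difference in EW against controls was -0.35 to 0.34. Tm7sf2 and Lbr both reduce the same sterol double bond, and Lbr also anchors chromatin at the nuclear envelope. They differed by -0.05 (95% interval -0.36 to 0.26) and 0.17 (-0.09 to 0.44) in EW against controls. Dhcr7, which makes cholesterol from 7-dehydrocholesterol, averaged 9.09 ± 1.19 FPKM in EW+HMOs, 5.903 ± 3.18 in EW+2'-FL, 4.66 ± 2.31 in EW+LNnT, 6.91 ± 2.24 in EW and 5.17 ± 0.695 in controls. All 5 EW+HMOs libraries lay above all 5 control libraries for Dhcr7, yet it was not called (log2 0.90 ± 0.34; edgeR adjusted p = 0.154).

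Ebp, the sterol isomerase, ran the other way. It held 17.5, 16.3, 17.5, 19.8 and 18.6 FPKM in EW+HMOs, 13.4, 19.9, 18.4, 18.03 and 15.1 in EW+2'-FL and 15.5, 17.3, 13.1, 18 and 18.99 in EW+LNnT. It held 19.7, 14.4, 16.2, 16.9 and 17.6 FPKM in EW and 22.4, 21.2, 24.8, 20.02 and 25.3 in controls. In FPKM every library of the 4 weaned groups lay below every control library. On TMM-scaled counts this held for EW+HMOs and EW+2'-FL and not for EW or EW+LNnT. The log2 difference was -0.40 ± 0.12 in EW and -0.43 ± 0.12 in EW+2'-FL against controls, with edgeR adjusted p = 0.118 and 0.0557, and neither passed. Ebp and Nsdhl lie on the X chromosome, and the share of libraries with Y-linked transcripts differed between these groups.

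Srebf2 (ENSMUSG00000022463; chromosome 15, 82031382 to 82089580 on GRCm39), which encodes SREBP2, held 16.7, 19.02, 13.2, 21.7 and 19.3 FPKM in EW+HMOs, 10.2, 11.9, 15.8, 12.01 and 14.3 in EW+2'-FL and 9.17, 14.1, 17.6, 11.5 and 11.1 in EW+LNnT. It held 10.7, 16.3, 16.3, 19.1 and 22.3 FPKM in EW and 10.1, 9.64, 8.49, 9 and 10.01 in controls. In FPKM every library of EW+HMOs, EW+2'-FL and EW lay above every control library, and LNnT1 alone among EW+LNnT libraries did not; on TMM-scaled counts it did too. Srebf2 rose 2.01-fold in EW+HMOs, 1.47-fold in EW+LNnT and 1.79-fold in EW over controls, with edgeR adjusted p = 0.00165, 0.0363 and 0.0139. For the combination beyond the single sugars it was not called (0.85 ± 0.24; edgeR adjusted p = 0.0838).

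The 3 proteins that hold or carry SREBP2 differed among themselves. Insig1 (ENSMUSG00000045294; chromosome 5, 28276361 to 28283660 on GRCm39), itself a target of SREBP2, held 24.3, 29.9, 13.2, 28.2 and 18.7 FPKM in EW+HMOs, 10.9, 5.59, 11.4, 12.3 and 11.98 in EW+2'-FL and 8.83, 10.9, 12.2, 13.7 and 10.3 in EW+LNnT. It held 30.3, 24.9, 22.1, 26.6 and 22.2 FPKM in EW and 12.2, 16.6, 13.9, 18.2 and 13.4 in controls. Both single-sugar groups lay below every EW library, and all but HMOs3 of the EW+HMOs libraries lay above every library of EW+2'-FL, EW+LNnT and the controls. Insig1 fell in EW+LNnT against EW (log2 -1.09 ± 0.23; edgeR adjusted p = 0.0448) and differed by -1.26 ± 0.23 in EW+2'-FL (edgeR adjusted p = 0.1904). The call in EW+LNnT was lost in 28 of 39 alternatives, 21 of them leaving out 1 library, with edgeR adjusted p up to 0.245. The combination differed from the sum of the single sugars by 2.27 ± 0.32 (edgeR adjusted p = 0.00144). In EW against controls Insig1 differed by 0.78 and was not called.

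Insig2, whose protein does the same work but whose gene is not known as a target of SREBP2 in liver, averaged 6.94 ± 0.541 FPKM in EW+HMOs, 7.43 ± 1.13 in EW+2'-FL, 6.56 ± 3.02 in EW+LNnT, 8.27 ± 0.766 in EW and 9.58 ± 0.635 in controls. Every EW+HMOs library, at 6.34 to 7.67 FPKM, lay below every control library, at 8.97 to 10.6, without a call (-0.39 ± 0.18; edgeR adjusted p = 0.239). Scap, the escort of SREBP2, averaged 5.01 ± 0.3697 FPKM in EW+HMOs, 5.43 ± 0.607 in EW+2'-FL, 5.28 ± 0.563 in EW+LNnT, 5.17 ± 0.689 in EW and 4.61 ± 0.414 in controls and was called in no comparison.

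The last pair, outside synthesis, were highest in the 3 libraries that stood apart. Mylip encodes IDOL, the ubiquitin ligase that sends the LDL receptor to the lysosome and is a target of LXR. It held 1.68, 2.09, 2.05, 2.88 and 2.66 FPKM in EW+HMOs, 9.98, 1.93, 1.37, 2.34 and 2.21 in EW+2'-FL and 10.8, 6.26, 2.66, 2.42 and 2.75 in EW+LNnT. It held 2.85, 3.396, 2.68, 3.72 and 2.32 FPKM in EW and 3.18, 2.61, 2.301, 1.96 and 1.81 in controls. FL1, LNnT1 and LNnT2 held 6.26 to 10.8 FPKM and the other 22 libraries 1.37 to 3.72. Stard4, a sterol carrier of the cytosol, held 32.0 to 50.1 FPKM in the same 3 libraries and 15.9 to 29.3 in the other 22. Neither gene was called in any comparison. Some enzymes of synthesis were lowest in the same 3 libraries, all of them from the single-sugar groups. Acat2 held 4.16 to 5.86 FPKM there, against at least 8.12 in the other 22. Hmgcs1 held 3.59 to 7.05, against at least 7.24, and Msmo1 4.09 to 6.9, against at least 7.72. Dhcr7 and Insig2 also lay below all of the other 22. Circadian clock markers summed to between 1811 and 2436 CPM in those 3 libraries, and to between 472.5 and 906.1 in the other 22. T cell markers summed to between 4.01 and 4.69, against 7.46 to 36.4. Intestinal stem cell markers summed to between 191.5 and 302.7, against 347.4 to 771.4. Glucocorticoid-induced genes summed to between 4568 and 4801, against 1828 to 4556. Their part in these values was not tested.

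In EW against suckling controls, 10 of the 26 genes rose and 0 fell, where 0.443% of all genes were called higher and 0.511% lower, so that they were 10 of the 98 genes called higher. The median log2 change was 0.77 over the 26 genes and 0.02 over all genes. On TMM-scaled CPM, the scale of each such count here, every EW library lay above every control library in 16 members and in 3.52% of all genes, and below in 0 members and in 4.97% of all genes. By step, 4 of 8 mevalonate genes, 3 of 3 squalene and lanosterol genes, 2 of 9 later enzymes and 1 of 4 SREBP2 genes rose. The count was 5 without Control3, 6 without Control4 and 5 without Weaned4. Those fits called 62, 84 and 58 of all genes in either direction, where the full fit called 211. The count of members was 4 (Mvd, Fdps, Lss and Cyp51) when Y-linked transcripts entered the fit as a covariate, which called 61 of all genes. These 4 of the 10 held under all 39 alternatives. In FPKM, Weaned3, the EW library with Xist alone, lay above every control library in 18 of the 26 genes. Weaned3 is 1 library and was part of the fit behind the 10 calls, so this is no separate check of sex. The share of all genes was not counted for it. Among markers of other kinds, the Paneth cell genes Defa22 and Mmp7 (log2 1.57 and 1.35), 2 of 7, were called higher in the same comparison. So was the clock gene Hlf (1.17), 1 of 15. The enterocyte gene Fabp2 (-0.99), 1 of 10, was called lower, while the 10 ran from -0.99 to 1.06 with a median of -0.04. The part of these markers in the result was not tested.

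Against EW, LNnT came with 3 members lower, Fdft1, Mvd and Insig1, and 0 higher, where 0.0542% of all genes were called lower and 0.117% higher. They were 3 of 12 such genes. The median log2 difference was -0.46 over the 26 genes and -0.01 over all genes. Every EW+LNnT library lay below every EW library in 9 members, as in 1.23% of all genes, and above in 0, as in 1.49%. The count of called members was 1 without Weaned3, Weaned4, Weaned5, LNnT1 or LNnT3, 11 without FL1, 7 without FL2 and 6 without LNnT4. It was 7 without FL1, LNnT1 and LNnT2 together, and 0 without the 6 libraries that held pancreatic transcripts, where Fdft1 differed by -1.51. With Y-linked transcripts in the fit it was 1. The number of all genes called moved as well, from 38 in the full fit. It was 7, 5, 17, 11 and 10 without Weaned3, Weaned4, Weaned5, LNnT1 or LNnT3. It was 219 without FL1, 120 without FL2, 161 without LNnT4 and 299 without FL1, LNnT1 and LNnT2 together. It was 3 without the libraries with pancreatic transcripts and 6 with the Y-linked covariate. Of the 3 calls 0 held under all 39 alternatives: Fdft1 was lost in 1, Mvd in 10 and Insig1 in 28. The clock genes Nfil3 and Per2 (2.68 and 0.97), 2 of 15, were called higher in the same comparison. The stem cell gene Lgr5 (-0.82), 1 of 6, was called lower, and the part of these markers was not tested.

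With 2'-FL, edgeR called 0 of the 26 genes and 0.00% of all genes against EW. DESeq2 called 3 members lower, and 43 of all genes in either direction. An unadjusted edgeR p under 0.05 was reached by 11 members and by 5.42% of all genes. The median log2 difference was -0.39, against 0.04 over all genes, and 21 of 26 members were below 0. The groups did not overlap for Hmgcs1, Mvd, Fdft1 and Insig1, all lower, which held for 0.425% of all genes. The single sugars were not told apart: EW+2'-FL against EW+LNnT gave 0 called members in edgeR, with 0.00% of all genes called. DESeq2 called 0 members there. In edgeR 5 members had an unadjusted p under 0.05, as did 8.51% of all genes. No member was wholly higher or wholly lower there, as were 0.294% and 0.221% of all genes. The 95% interval of that difference was 0.01 to 0.90 for Fdft1, -0.43 to 0.74 for Hmgcs1 and 0.01 to 1.53 for Idi1, on the log2 scale, with no adjustment for the number of genes, so a 2-fold difference in Idi1 lies within its interval.

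**Figure D3:**
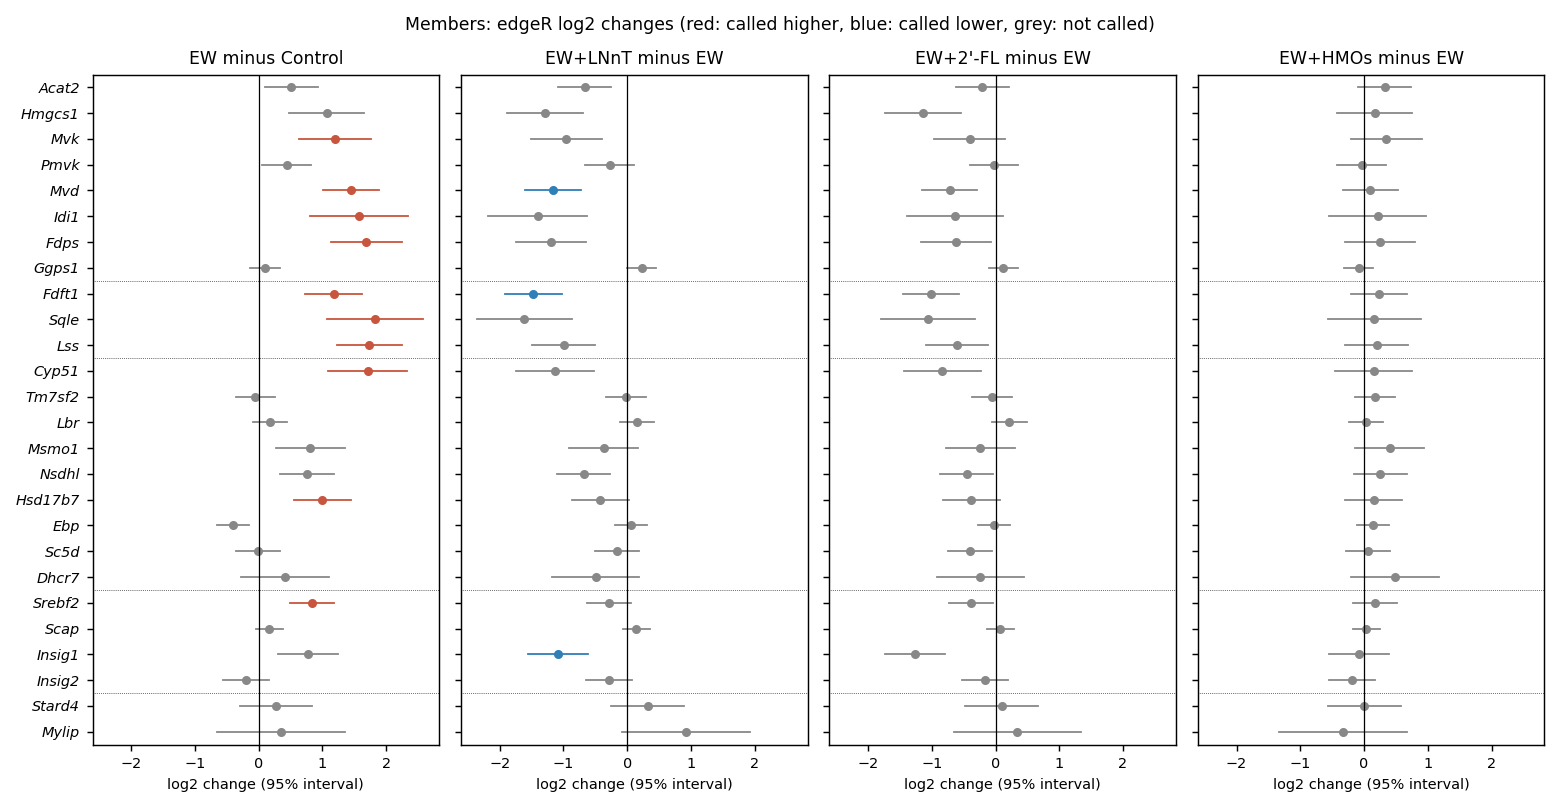
Log2 differences of the 26 genes (points) with 95% intervals in 4 comparisons fitted together in edgeR: EW against controls, and EW+LNnT, EW+2'-FL and EW+HMOs against EW. Called genes are red where higher (10 in EW) and blue where lower (3 in EW+LNnT); the EW+HMOs points stay between -0.33 and 0.49.

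Against the same EW libraries, the combined supplement moved no member past the test. EdgeR called 0 of 26 members and 0.00% of all genes, DESeq2 called 0 members, and 0 members had an unadjusted p under 0.05. Estimates ran from -0.33 to 0.49 with a median of 0.16, against -0.02 over all genes, and the groups overlapped in every member, while 1.38% of all genes lay wholly higher in EW+HMOs and 0.990% wholly lower. The 95% interval was -0.42 to 0.75 for Hmgcs1, -0.20 to 0.68 for Fdft1 and -0.57 to 0.89 for Sqle. These intervals do not show that EW+HMOs and EW were alike. For Fdft1 the interval with LNnT against EW was -1.92 to -1.02, which does not meet the one with both sugars.

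Whether the combination differed from the sum of its parts was tested by the change with both sugars, minus the change with 2'-FL, minus the change with LNnT, each against EW on the log2 scale. A positive value means a higher level with both sugars than the single changes add up to. It was called higher for 12 of 26 members and lower for 0, where 0.258% of all genes were called higher and 0.587% lower. The 12 made up 12 of the 57 genes called higher in the whole table. They were Acat2, Hmgcs1, Mvk, Mvd, Idi1, Fdps, Fdft1, Sqle, Lss, Cyp51, Nsdhl and Insig1, with values between 1.20 for Acat2 and 2.83 for Sqle. By step that is 6 of 8 mevalonate genes, 3 of 3 squalene and lanosterol genes, 2 of 9 later enzymes and 1 of 4 SREBP2 genes. The median was 1.10 over the 26 genes and -0.07 over all genes.

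Leaving out any 1 library gave between 8 and 13 called members, and 8 of the 12 (Hmgcs1, Mvd, Fdps, Fdft1, Sqle, Lss, Cyp51 and Insig1) were called under all 39 alternatives run. Without FL1, LNnT1 and LNnT2 together the count was 12, without the 6 libraries with pancreatic transcripts 10, and with Y-linked transcripts in the fit 10. All genes called were 765, 230 and 106 in the same order. They were 187 in the full fit and 52 to 322 leaving out 1 library. The 5 EW libraries enter all 3 of the changes that make up the test, so it is not independent of the comparisons with EW. The clock genes Nfil3, Cry1 and Clock, 3 of 15, were called lower in the same test (-4.08, -1.36 and -1.33), and their part was not tested.

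EW+HMOs was also set against each single sugar, where the EW libraries enter the shared estimate of the spread but neither group mean. Against EW+LNnT, 10 members were called higher and 0 lower, where 0.145% of all genes were called higher and 0.271% lower, and they were 10 of those 32 genes. In 12 members every EW+HMOs library lay above every EW+LNnT library, as in 2.42% of all genes, and in 0 below, as in 2.16%. Fdft1 was 3.27-fold higher (log2 1.71 ± 0.22; edgeR adjusted p = 0.00107), and Sqle 3.41-fold (edgeR adjusted p = 0.0301). The count was 1 without HMOs1, HMOs2, HMOs4 or LNnT1, 3 without HMOs5, 5 without LNnT2 and 6 without LNnT3, and 10 without FL1, LNnT1 and LNnT2 together. It was 2 without the libraries with pancreatic transcripts, and 4 with Y-linked transcripts in the fit, and 1 of the 10 calls, Fdft1, held under all 39 alternatives. Of all genes, 92 were called in the full fit, 2 without HMOs1, HMOs2 or LNnT1 and 3 without HMOs4. The number was 23 without HMOs5, 79 without LNnT2, 37 without LNnT3 and 297 without FL1, LNnT1 and LNnT2 together. It was 50 without the libraries with pancreatic transcripts and 26 with the Y-linked covariate. The clock gene Nfil3, 1 of 15, was called lower in the same comparison (log2 -3.06), and its part was not tested. Against EW+2'-FL, edgeR called 0 members and 0.00% of all genes. DESeq2 called 4 members higher, and 147 of all genes in either direction. An unadjusted edgeR p under 0.05 was reached by 17 members and by 10.7% of all genes. The groups did not overlap for Mvk, Nsdhl, Sc5d and Insig1, all higher in EW+HMOs, as in 0.935% of all genes, and 0 members were wholly lower, as were 0.831%.

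**Figure D4:**
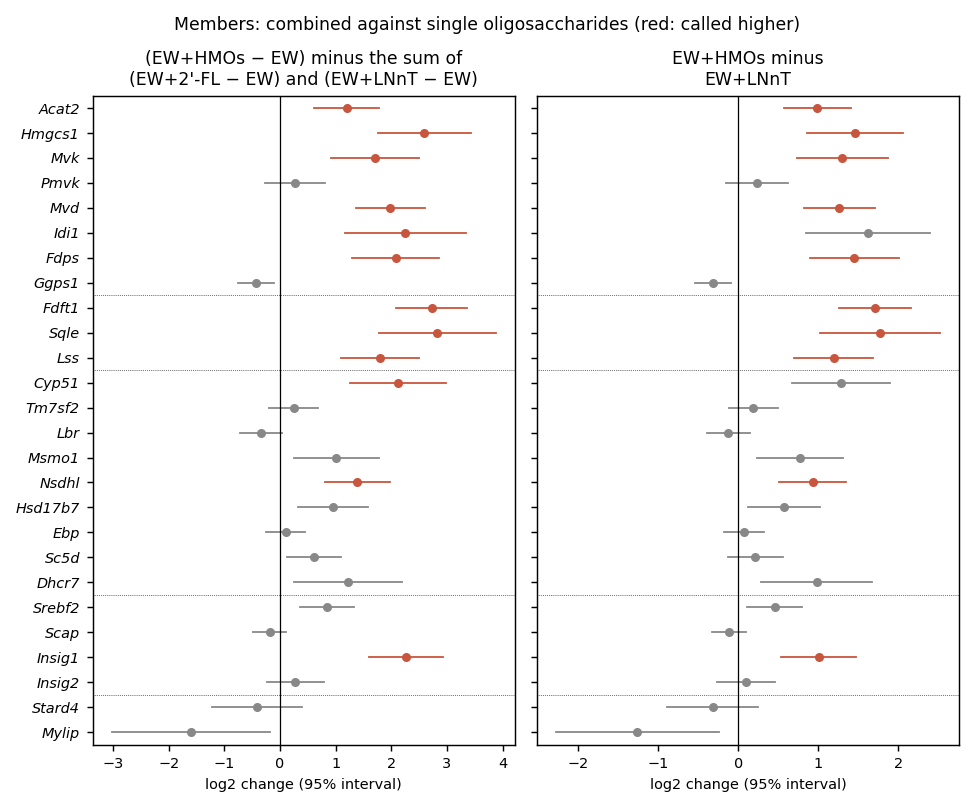
Log2 values of the 26 genes (points) with 95% intervals for the combined supplement beyond the sum of the single ones (left) and for EW+HMOs minus EW+LNnT (right). The 12 called genes at the left run from 1.20 (Acat2) to 2.83 (Sqle), and the 10 at the right from 0.93 (Nsdhl) to 1.77 (Sqle); Ggps1, Lbr, Scap, Stard4 and Mylip lie below 0 in both.

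Set against suckling controls, the 3 supplemented groups had different numbers of called members. In EW+HMOs 14 members were called higher (0.917% of all genes) and 0 lower (0.935%), from Acat2 at 1.79-fold to Sqle at 3.97-fold. In 14 every EW+HMOs library lay above every control library, against 7.90% of all genes, and in Ebp and Insig2 every one lay below, against 8.24%. In EW+2'-FL 2 were called higher, Fdps at 2.09-fold and Lss at 2.19-fold (1.07% of all genes), and 0 lower (1.48%). Every EW+2'-FL library lay above every control library in Mvd and Srebf2 (1.98% of all genes) and below in Ebp (3.66%). In EW+LNnT 2 were called higher, Lss at 1.67-fold and Srebf2 at 1.47-fold, where 6.68% of all genes were called higher, a share close to that of the members, and 0 lower (3.93%). Every EW+LNnT library lay above every control library in Ggps1, Lss and Srebf2 (5.37% of all genes) and below in 0 members (5.97%). The 2 calls in EW+LNnT became 0 without Control1, Control3, Control4, Control5 or LNnT2, 1 without any of 13 other libraries, 3 without Weaned1 and 5 without FL1 or FL2. The 2 in EW+2'-FL became 0 without Control3, 1 without Control1, Control4, Control5, FL3 or FL5, 3 without HMOs3 or FL1 and 4 without FL2. All genes called moved too. For EW+LNnT they were 2348 in the full fit and 700 to 3310 leaving out 1 library, and for EW+2'-FL 563 and 191 to 1452. Of the members called against controls, 10 of 14 in EW+HMOs and 0 of 2 in each single-sugar group held under all 39 alternatives. Markers were called in the same comparisons, and their part was not tested. In EW+HMOs these were 3 of 15 clock genes, 1 of 7 Paneth cell genes (Mmp7) and 2 of 10 enterocyte genes (Sis and Slc5a1) higher. Another 1 of the 10 enterocyte genes, Fabp2, was lower. In EW+2'-FL they were 4 of 15 clock, 2 of 10 glucocorticoid-induced, 1 of 7 Paneth cell and 1 of 10 enterocyte genes higher, and 4 of 7 macrophage, 2 of 10 enterocyte and 1 of 7 goblet cell genes lower. In EW+LNnT they were 9 of 15 clock, 6 of 10 glucocorticoid-induced and 1 of 10 enterocyte genes higher, and 2 of 7 macrophage, 2 of 10 enterocyte, 1 of 7 goblet cell and 1 of 6 stem cell genes lower. These comparisons share the control libraries. Set side by side, the differences of Sqle were 1.99 ± 0.37 in EW+HMOs, 0.77 ± 0.36 in EW+2'-FL, 0.22 ± 0.36 in EW+LNnT and 1.83 ± 0.37 in EW, as log2 changes over controls.

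Within libraries of one sex by their transcripts, medians over the 26 genes, given with no test, kept the direction of the full groups in most comparisons. Among libraries with Xist alone, the median log2 difference was 0.87 for EW+HMOs over controls (2 against 4 libraries) and 0.79 for EW over controls (1 against 4). It was -0.90 for EW+LNnT against EW (3 against 1) and -1.06 for EW+2'-FL against EW (1 against 1). Among libraries with Y-linked transcripts, it was -0.38 for EW+LNnT against EW (2 against 4), -0.20 for EW+2'-FL against EW (4 against 4) and 0.27 for EW+HMOs against EW (3 against 4). EW+HMOs lay above EW+LNnT by a median of 0.73 (3 against 2) and above EW+2'-FL by 0.56 (3 against 4) there. No control library had Y-linked transcripts without Xist, so the comparison with controls has no value among those. With Xist alone the medians lay near 0 for EW+HMOs against EW (-0.05), EW+2'-FL against EW+LNnT (-0.05), EW+2'-FL against controls (-0.02) and EW+LNnT against controls (0.0016), each with 1 to 4 libraries a side. Among single genes with Xist alone, 13 of 26 had the other sign than in the full groups for EW+HMOs against EW. The number was 10 for EW+2'-FL and 4 for EW+LNnT against controls, and 7 for EW+2'-FL against EW+LNnT. In each of those comparisons with controls the 2 called members kept their sign, and 0 members were called in the others. With Xist alone 6 genes also turned for EW+2'-FL against EW, 5 for EW+HMOs against EW+2'-FL and 2 for EW against controls. Among libraries with Y-linked transcripts 7 turned for EW+LNnT against EW and 8 for EW+2'-FL against EW+LNnT. For EW+HMOs against EW+LNnT 4 did. Of the called members 0 turned in these comparisons, and 0 genes turned in the rest. The calls came from fits that held these same libraries, so this is no separate check.

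Neighbouring pathways had few called genes, as did the whole table. In EW against controls 0.443% of all genes were called higher and 0.511% lower. With LNnT against EW the shares were 0.117% and 0.0542%, and with 2'-FL 0.00% each way. For the combination beyond the single sugars they were 0.258% and 0.587%. At such shares a list of this size would hold few or no called genes, so a count of 0 does not set it apart from other genes. Of 18 genes of fatty acid synthesis, which answer to the sister factor SREBP1, 0 were called in edgeR in EW against controls (median log2 0.43), 0 for LNnT or 2'-FL against EW (medians -0.34 and -0.07) and 0 for the combination beyond the single sugars (0.16). Of 14 genes that process SREBPs or degrade sterol-sensing proteins, 12 of other isoprenoid branches, 16 of cholesterol uptake, storage and transport and 5 tested of 7 of bile acid signalling, 0 were called in those same comparisons. Among 11 genes of LXR and cholesterol efflux, Apoe, a carrier of lipids, was called lower in EW against controls (log2 -0.88 ± 0.14; edgeR adjusted p = 0.00134): it averaged 96.6 ± 8.66 FPKM in EW+HMOs, 93.0 ± 7.48 in EW and 173 ± 29.1 in controls. In EW+HMOs against controls, Scarb1, a receptor for high-density lipoprotein, was called higher (log2 1.42 ± 0.36; edgeR adjusted p = 0.037). It averaged 16.9 ± 6.19 FPKM in EW+HMOs, 6.64 ± 4.44 in EW+2'-FL, 9.54 ± 4.80 in EW+LNnT, 5.40 ± 1.903 in EW and 6.60 ± 1.34 in controls. Me1, malic enzyme, was called lower there (-2.28 ± 0.45; edgeR adjusted p = 0.00671), with 4.03 ± 0.962 FPKM in EW+HMOs and 20.7 ± 3.73 in controls.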

How the data were processed

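Jejunal mRNA of 25 libraries was analysed from the authors' deposited counts (whole numbers per gene) and deposited FPKM values, which the authors scaled to gene length and library size. The tools named, per the submitters' processing notes, are edgeR, DESeq2, StringTie 2.1.6, HISAT2 2.2.1 and cutadapt 1.9, on GRCm39. The sources used here give neither their roles and order nor the annotation release, the counting's strand setting or the handling of reads shared by paralogs. Per the labels' protocols, RNA was enriched on oligo(dT) and libraries were strand-specific by dUTP. The copies of the counts in both deposited tables were identical. No column of sample values was left unmapped.

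Analyses ran in R 4.3.3. Counts passed filterByExpr by group, were scaled by TMM and were tested by quasi-likelihood (edgeR 4.0.16, robust) in 1 fit to all 25 libraries whose only terms were the 5 group means. The 10 pairs of groups and the contrast of EW+HMOs with the sum of the single sugars were tested, and p was adjusted (Benjamini-Hochberg) over the 22131 genes of each contrast. Intervals are at 95% and unadjusted. FPKM values describe levels, and were tested only as an alternative, as log2(FPKM + 1) or log2(FPKM + 0.1) in limma 3.58.1; DESeq2 1.42.0 and voom with quality weights were others. The pseudocount understates the change of low genes. In all 39 alternatives were run, 25 of them leaving out 1 library each; values within libraries of one sex were added after seeing the data. The steps were tested on simulated data with known changes.

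Replicate numbers were not shown to pair libraries: deviations of libraries with the same number correlated between -0.24 and 0.47, and the labels name no shared litter or batch. All 26 members are named, with up to 4 called genes of each other pathway list by smallest p. Called markers are given by name or by count. The members, the 6 other pathway lists (78 genes) and the marker lists were chosen with earlier results of these data known. Promoter windows are from RefSeq on GRCm38.p6, and both strands were searched. Of the members, 12 overlap another annotated gene.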

Additional observations from a re-analysis of the deposited data

Results flagged for a closer look

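In 130 sets of 5 libraries (26 genes in 5 groups), 6 had a library farther from the rest than Dixon's test allows at 95%, and chance gives about 1 in 20. HMOs3 was the low one of its group 3 times. It held 12.8 FPKM of Hmgcs1, with 27.1 to 32.4 in the other EW+HMOs libraries. It held 3.7 FPKM of Sqle, with 8.40 to 10.03 in the others, and 3.24 of Hsd17b7, with 5.50 to 6.18. HMOs3 was lowest of its group for 14 of the 26 genes. Other libraries were often lowest of theirs too: LNnT1 for 20, Weaned1 for 18, FL1 for 15 and Control3 for 13. Ggps1 was low in Weaned1, at 3.78 FPKM, with 4.75 to 5.04 in the other EW libraries. Insig1 was low in FL2, at 5.59 FPKM, with 10.9 to 12.3 in the other EW+2'-FL libraries. Mylip was high in FL1, at 9.98 FPKM, with 1.37 to 2.34 in the others.

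In 12 genes the effect of both sugars together differed from the sum of the single effects by edgeR's test of that difference. The log2 values were 1.20 for Acat2, 2.60 for Hmgcs1, 1.71 for Mvk, 1.99 for Mvd, 2.26 for Idi1, 2.08 for Fdps and 2.72 for Fdft1. They were 2.83 for Sqle, 1.80 for Lss, 2.12 for Cyp51, 1.39 for Nsdhl and 2.27 for Insig1.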

How the results depend on the processing

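The combination beyond the single sugars gave 12 called members, and 8 to 13 under every alternative. The fits named below also called different numbers of all genes. DESeq2 called 1329 for EW+2'-FL and 3525 for EW+LNnT against controls. It called 406 for EW+LNnT and 43 for EW+2'-FL against EW, and 147 for EW+HMOs against EW+2'-FL. Voom called 5005 for EW, 5427 for EW+HMOs and 3431 for EW+2'-FL against controls. The Y-linked covariate gave 61 for EW against controls. For EW against controls (10 higher, 0 lower) voom with quality weights gave 17 and 1, the Y-linked covariate 4 higher, and leaving out FL1, LNnT1 and LNnT2 gave 1 lower. For EW+LNnT against EW (3 lower) DESeq2 gave 10, voom 8, a mean of at least 1 CPM 6, the contrast's groups alone 1, leaving out those 3 libraries 7, leaving out the 6 with pancreatic transcripts 0, and the covariate 1. For EW+2'-FL against EW (0 lower) DESeq2 gave 3, and unscaled library totals, voom and limma on log2(FPKM + 1) or log2(FPKM + 0.1) gave 1 each. For EW+HMOs against EW+LNnT (10 higher) the groups alone gave 2, leaving out the pancreatic libraries 2, the covariate 4, and unfiltered FPKM 4. For EW+HMOs against EW+2'-FL (0 higher) DESeq2 gave 4, leaving out the 3 libraries 1, and leaving out the pancreatic ones 2. For EW+HMOs against controls (0 lower) voom and the groups alone gave 2 and leaving out the 3 libraries 1. For EW+2'-FL against controls (2 higher, 0 lower) higher counts were 1 with library totals, 6 with DESeq2, 13 with voom, 8 without the 3 libraries, 0 with the groups alone, without the pancreatic libraries, with the covariate or with unfiltered FPKM, and 1 with either filtered FPKM fit. Lower counts there were 1 with DESeq2, voom, the CPM minimum and either filtered FPKM fit. For EW+LNnT against controls (2 higher, 0 lower) higher counts were 4 with RLE factors or the CPM minimum, 6 with DESeq2, 1 with the groups alone or the covariate, and 0 with library totals, no filter, FPKM or without the pancreatic libraries. Lower counts there were 1 with library totals, voom, the covariate, unfiltered FPKM or without the 3 libraries, and 2 with filtered FPKM.

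Leaving out 1 library gave 5 to 13 higher and 0 to 1 lower for EW against controls, 1 to 11 lower for EW+LNnT and 0 for EW+2'-FL against EW, and 11 to 15 higher for EW+HMOs against controls. It gave 0 to 5 higher and 0 to 1 lower for EW+LNnT, and 0 to 4 higher and 0 to 1 lower for EW+2'-FL, against controls. It gave 1 to 12 for EW+HMOs over EW+LNnT, 0 to 2 over EW+2'-FL and 8 to 13 for the combination beyond the single sugars. With the replicate number as a block, counts were 10 for EW, 14 for EW+HMOs, 1 for EW+LNnT and 3 for EW+2'-FL over controls, 3 lower for EW+LNnT against EW, 11 for EW+HMOs over EW+LNnT and 12 for the combination; the numbers are not shown to pair libraries. Of all genes, 211 were called for EW against controls and 58 to 5005 under the alternatives, 38 for EW+LNnT against EW and 1 to 406, and 187 for the combination and 46 to 765. The replicate block also ended the call of Insig1 in EW+LNnT against EW (adjusted p = 0.0749). Among the 39 alternatives, direction turned for 5 uncalled differences of those recomputed gene by gene. In EW against controls Sc5d (-0.005) was 0.0065 with RLE factors or DESeq2, 0.0223 with voom, 0.0168 with the CPM minimum, 0.0012 with the groups alone and 0.0339 without the pancreatic libraries. Leaving out 1 library put Sc5d between -0.05157 and 0.0485, above 0 in 5 fits. Tm7sf2 (-0.05) was 0.0203 without the pancreatic libraries and between -0.1198 and 0.0350 leaving out 1 library, above 0 without Control3 (0.0128) or Weaned2. Mvd in EW+HMOs against EW was -0.01253 on log2(FPKM + 1), filtered or not, and -0.02295 on log2(FPKM + 0.1). Sqle in EW+LNnT against controls was -0.03689 on log2(FPKM + 0.1). Hmgcs1 in EW+2'-FL against EW+LNnT was -0.01375 without the 3 libraries, -0.2968 without the pancreatic ones, -0.01303 with the covariate and -0.03198 to 0.3506 leaving out 1 library. The causes were not tested. Each member held at least 227 counts in every library.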

Other observations

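Of the neighbouring lists, a few other genes were called against controls in edgeR. Nr0b2, the nuclear receptor SHP that answers to bile acids, was lower in EW+HMOs than in controls (log2 -2.78 ± 0.61; edgeR adjusted p = 0.0149), with 0.991 ± 0.978 FPKM in EW+HMOs, 1.78 ± 1.02 in EW+2'-FL, 2.94 ± 1.98 in EW+LNnT, 2.01 ± 1.25 in EW and 7.33 ± 2.01 in controls (mean ± SD, n = 5 each). In EW+LNnT against controls, where 6.68% of all genes were called higher, the endosomal cholesterol transporter Npc1 was higher (1.21 ± 0.33; edgeR adjusted p = 0.0218), as was Rnf145, a ubiquitin ligase that acts on SCAP (0.80 ± 0.19; edgeR adjusted p = 0.0122). Nfe2l1 of the same list was lower (-0.27 ± 0.09; edgeR adjusted p = 0.049). Mbtps1, the protease that first cuts SREBP2 in the Golgi, was higher there too (0.43 ± 0.13; edgeR adjusted p = 0.0344). It was lower in EW+HMOs than in EW+LNnT (-0.63 ± 0.13; edgeR adjusted p = 0.029), with 6.67 ± 0.369 FPKM in EW+HMOs, 9.99 ± 0.900 in EW+LNnT and 8.11 ± 0.632 in EW. In EW+LNnT against controls Gramd1b (1.04) and Nus1 (0.70) were also called higher and Rabggta (-0.31) lower. In EW+2'-FL against controls Scd1, a fatty acid desaturase, was called higher (4.08 ± 1.06; edgeR adjusted p = 0.0399) and Me1 lower (-1.98). Scd1 averaged 9.57 ± 14.8 FPKM in EW+2'-FL, where it ran from 0.341 to 35.5. In controls it ran from 0.117 to 1.04, so the groups overlapped. Pltp, which transfers phospholipid between lipoproteins, was called lower than in controls in EW+HMOs (-0.76), EW+2'-FL (-0.85) and EW+LNnT (-1.05), as was Apoe (-0.75, -1.07 and -0.96), on the log2 scale; these comparisons share the control libraries.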
